A study of Mus musculus with 9 samples.

Results

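The MHC class I presentation pathway and the checkpoint ligand PD-L1 were followed through 10 genes chosen by name, out of 49315 genes counted. They were the heavy chain genes H2-K1, H2-D1 and H2-T23, the light chain gene B2m, the peptide transporter genes Tap1 and Tap2, the loading and trimming genes Tapbp and Erap1, the regulator gene Nlrc5, and Cd274, which encodes PD-L1. All 10 were found in the count table. The measurements were bulk RNA-seq libraries of cells sorted from co-cultures of GFP+ SB28 cells, a mouse glioblastoma line, with primary neonatal astrocytes of strain C57BL6 (mito::mKate2), in which a red fluorescent protein, mKate2, marks mitochondria. The 9 libraries were 3 of astrocytes, 3 of SB28 cells without astrocyte mitochondria (mKate2-) and 3 of SB28 cells that had taken them up (mKate2+). The SB28 cells derive from the same C57BL6 strain. By the sample labels, every group came out of a co-culture of 2 days in DMEM F12 with 2% FBS, 5% N2 supplement, EGF at 20 ng/ml and FGF, and was labelled untreated, so no group held tumor cells or astrocytes kept alone, and libraries were assigned by their titles. The published methods instead give 5% FBS and 1% N2 supplement for this medium. The astrocytes are primary cells and SB28 is 1 cell line, so a difference between them combines cell of origin, transformation and culture history, which cannot be told apart. The 3 replicates were described as separate co-cultures.

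MHC class I molecules show short peptides from inside the cell to CD8+ T cells. The proteasome cuts the peptides, the TAP1-TAP2 transporter carries them into the endoplasmic reticulum, ERAP1 trims them, and tapasin, the product of Tapbp, helps load them onto a heavy chain paired with beta-2-microglobulin. Interferon raises most of these genes through IRF and STAT factors and NLRC5, and it also raises PD-L1, which binds PD-1 on T cells and restrains them. Glioblastoma and normal brain cells are known for low class I expression outside inflammation.

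Promoter sequences are shown for H2-K1, H2-D1, B2m and Erap1. Of these, the classical class I genes H2-K1 and H2-D1 are known to carry closely spaced kB and IRF motifs. The sequences came from RefSeq on GRCm38.p6, where 8 of the 10 genes were matched and Tap2 and Nlrc5 were not. Each is written 5′ to 3′ on the strand of the gene, with matches to a kB motif (GGGA, any 4 bases, CC), an IRF core motif (AANNGAAA) or an interferon-stimulated response element (ISRE, written GAAA, any 2 bases, GAAA) on either strand in capitals. The H2-K1 (chr17:34000348-34000597, minus strand) and B2m (chr2:122147437-122147686, plus strand) windows are the 250 bases before the start (H2-K1 has 2 RefSeq starts, of which the first was used). The H2-D1 (chr17:35262923-35262952, plus strand) and Erap1 (chr13:74639839-74639868, plus strand) windows are 30 bases around the matches, since GENCODE annotates exons of some transcripts there.
H2-K1: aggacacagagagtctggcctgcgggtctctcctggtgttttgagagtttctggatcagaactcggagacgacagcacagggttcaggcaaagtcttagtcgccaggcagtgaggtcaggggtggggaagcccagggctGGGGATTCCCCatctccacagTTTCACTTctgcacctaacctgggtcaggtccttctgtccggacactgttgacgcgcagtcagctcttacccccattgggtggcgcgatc
H2-D1: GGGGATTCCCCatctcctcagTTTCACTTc
B2m: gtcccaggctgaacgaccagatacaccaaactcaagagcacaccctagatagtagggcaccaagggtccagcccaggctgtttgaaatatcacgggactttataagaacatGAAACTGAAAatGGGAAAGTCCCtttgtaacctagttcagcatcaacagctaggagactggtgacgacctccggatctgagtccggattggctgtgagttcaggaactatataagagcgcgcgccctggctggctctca
Erap1: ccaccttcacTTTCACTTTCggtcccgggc

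H2-K1 and H2-D1 held the same kB and IRF core letters at the same spacing, and their 250-base windows were identical at 166 of 190 aligned bases (87.4%). Over the 300 bases from 250 before to 50 after the start, a kB match was found in 3 of the 8 promoters (H2-K1, H2-D1 and B2m) and in 20.7% of 32851 mouse promoters of the same length. An IRF core match was found in 6 of the 8 and in 23.9% of all promoters. An ISRE match, which always contains an IRF core match, was found in 3 of the 8 (H2-T23, B2m and Erap1) and in 3.44%. The shorter X2 letters TGACG were found in 4 of the 8 (20.8% of all) and CCAAT in 6 of the 8 (37.4% of all). The Tap1 and Tapbp windows held no kB, IRF core or ISRE letters. The Tapbp window (chr17:33919228-33919477, plus strand) lies inside the gene as GENCODE annotates it, from 33915899, and sequence before that earlier start was not searched. A match here describes letters in a window and is not a binding site.

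**Figure D1:**
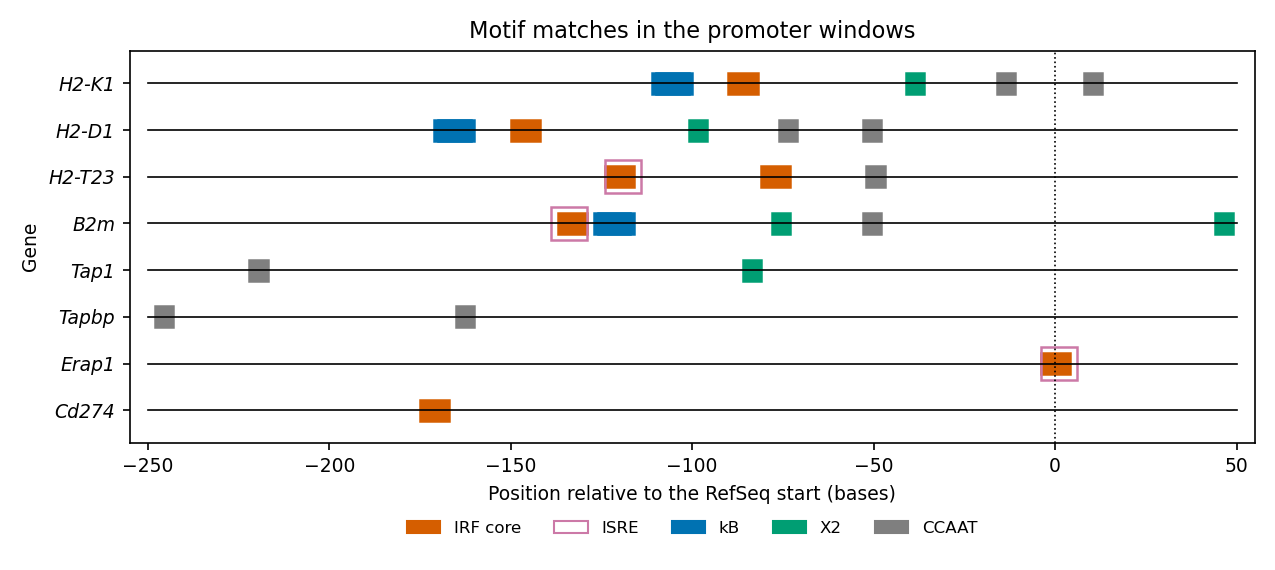
Matches to 5 motifs in the promoter windows of 8 genes, by position in bases relative to the RefSeq start (dotted line at 0), where each box spans 1 match. The kB and IRF core boxes of H2-K1 and H2-D1 have the same spacing, and those of H2-D1 lie 60 bases farther from the start.

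Before expression was compared, the libraries were checked against their labels. Total counts ranged from 24454561 to 39287841 per library. The astrocyte libraries held Slc1a3, a glutamate transporter of astrocytes, at 173, 177 and 235.6 CPM (read counts scaled to the library total), and Apoe, a lipid carrier that astrocytes secrete, at 264, 260.3 and 270.2 CPM. Gfap, the astrocyte filament protein, was lower and variable at 8.83, 3.42 and 19.4 CPM, and Gjb6, a connexin of mature astrocytes, was at 0 in all 9 libraries. Of the 15 astrocyte markers in the list used, 11 passed a filter on low counts, and 8 were called lower in each SB28 group than in astrocytes and 0 higher (22.4% and 22.8% of all genes tested were called lower in mKate2- and mKate2+ cells). In SB28 cells the astrocyte list summed to 486 ± 24.6 CPM (mKate2-) and 486 ± 14.5 CPM (mKate2+), led by the connexin gene Gja1, against 1309 ± 395 CPM in astrocytes. Other lineage genes were present in the astrocyte libraries, where the 10 oligodendrocyte lineage markers summed to 712 ± 237 CPM (SD, n = 3) with Olig1 the most abundant at 362 CPM, and the 8 fibroblast and pericyte markers to 1319 ± 232 CPM with Col1a2 at 990.4 CPM. The neuron list summed to 72.9 ± 25.9 CPM there (most abundant Stmn2, with Rbfox3 at 0), and the endothelial list to 87.6 ± 105 CPM, most of it Flt1 at 192 CPM in replicate 3, with Cldn5 and Emcn at 0. Mean sums in SB28 cells were 44.5 and 42.3 CPM for the oligodendrocyte lineage, 763 and 681 CPM for fibroblasts and pericytes, 26.6 and 27.5 CPM for neurons and 56.7 and 53.4 CPM for endothelium in mKate2- and mKate2+ cells. Other markers called lower in both SB28 groups were Slc1a2 (log2 fold changes -7.26 and -7.90), Olig2 (-6.70 and -7.73), Gad2 (-5.57 and -6.07) and Esam (-6.12 and -5.76), while the neuron list held Tubb3, called higher in mKate2+ cells (1.12), and Syp, called higher in mKate2- cells at the fold minimum (1.01). The Syp call was lost without any 1 of the mKate2- replicates or astrocyte replicate 2, with values from 0.71 to 1.10. The part of these cell types in the differences from astrocytes was not tested.

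Immune cells can express much class I, and their markers were also examined. The 19 microglia and macrophage markers summed to 102 ± 1.61, 83.1 ± 6.37 and 85.0 ± 7.67 CPM in astrocytes, mKate2- and mKate2+ cells, with Tmem119 the most abundant in SB28 cells. Only 4 of the 19 passed the filter on low counts. Of the others, Cx3cr1, Trem2, Tyrobp and C1qa were each below 0.1 CPM on average in every group, while some defining genes had more reads in astrocytes than in SB28 cells. Mean levels in astrocytes, mKate2- and mKate2+ cells were 0.690, 0.0112 and 0.101 CPM for Laptm5, 0.363, 0.165 and 0.0560 CPM for Csf1r, the receptor for a growth factor of microglia, 0.237, 0.0123 and 0.0190 CPM for Aif1, which encodes IBA1, 0.223, 0.0583 and 0.00925 CPM for Ctss and 0.180, 0.0368 and 0.00975 CPM for the complement gene C1qc. Astrocyte replicate 2 held the most Csf1r (0.795 CPM), Ctss (0.489 CPM) and C1qc (0.459 CPM). Ptprc, which encodes CD45, had means of 0.0850, 0.0988 and 0.161 CPM in astrocytes, mKate2- and mKate2+ cells. In the astrocyte libraries Ptprc was at 0.0409, 0.214 and 0 CPM. P2ry12, a receptor of resting microglia, was at 1.06, 2.54 and 0.484 CPM in astrocytes and at 0 to 0.055 CPM in SB28 libraries, and Cd68, a lysosomal protein of phagocytes, was at 15.7, 17.9 and 6.69 CPM against 1.54 to 3.54 CPM. Both were called lower in mKate2- and mKate2+ cells, beside 22.4% and 22.8% of all genes tested. Their log2 fold changes were -6.50 and -5.39 for P2ry12 and -2.44 and -2.19 for Cd68. Tmem119 went the other way, at 39.1, 24.8 and 30.5 CPM in astrocytes and 47.3 to 61.1 CPM in SB28 libraries, and was not called. In mKate2+ cells, 0 to 1 of these markers were called higher with 1 library left out. Without astrocyte replicate 1 or 2, P2ry12 did not pass the filter and was not tested, while Cd68 was called with any 1 library left out. The part of microglial RNA in the class I differences was not tested. The lymphocyte list summed to a mean of 0.064 CPM or less in every group. Among SB28 libraries, mKate2+ replicate 2 stood apart, with a root mean square log2 difference of 0.569 to 0.632 from the others against 0.365 to 0.433 among those others, so the log2 fold changes of the tested genes among the 10 in mKate2+ cells, and the calls in the lists that changed, are also given without it. Sox9 of the astrocyte list was called lower in mKate2+ cells without that library (-1.10) and not with it (-0.95). The astrocyte libraries differed from each other by 0.570 to 0.804.

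Both SB28 groups had lower levels of the peptide transporter, tapasin and H2-K1 transcripts than the co-cultured astrocytes, while the 3 groups overlapped for Erap1, Nlrc5 and Cd274. Among the 7 genes other than these, mean levels ran from 83.4-fold lower for Tap1 to 1.52-fold lower for B2m in mKate2- cells, and from 61.3-fold to 1.30-fold lower for the same genes in mKate2+ cells. Of the 9 genes that passed the filter on low counts (2 or more of the 6 libraries above 1 CPM), 5 were called lower in mKate2- cells (Tap1, Tap2, H2-K1, Tapbp and H2-T23) and 0 higher. A call needed a log2 fold change beyond 1 in size with an adjusted P under 0.05 in edgeR's quasi-likelihood test, and 22.4% of the 13356 genes tested were called lower and 11.5% higher. In mKate2+ cells 4 of 9 were called lower (Tap1, Tap2, H2-K1 and Tapbp) and 0 higher, with 22.8% of 13342 genes called lower and 12.2% higher, and without replicate 2 the count was 5. The 2 comparisons share the 3 astrocyte libraries and are not independent. The median log2 fold change of the tested members was -1.01 in mKate2- and -0.97 in mKate2+ cells, beside -0.04 and -0.02 over all genes tested. In bulk samples, fewer cells of a type and less RNA per cell cannot be told apart.

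These splits depended on how the libraries were centred. The planned removal of the gene length trend was first run in a form that also removed each library's mean log level. In that form, the all-gene median moved to 0.45 and 0.47, and 3442 genes were called higher and 2322 lower in mKate2- cells and 3697 and 2331 in mKate2+ cells, in place of 1531 and 2994, and 1634 and 3041. Relative to that centre, 3 members (H2-K1, Tap1 and Tap2) were called lower in each comparison. The form that removes the length trend alone was written after that result was seen, and gave 5 and 4 called, and a log2 fold change of -0.71 for B2m in mKate2+ cells (adjusted P = 0.0011, edgeR).

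**Figure D2:**
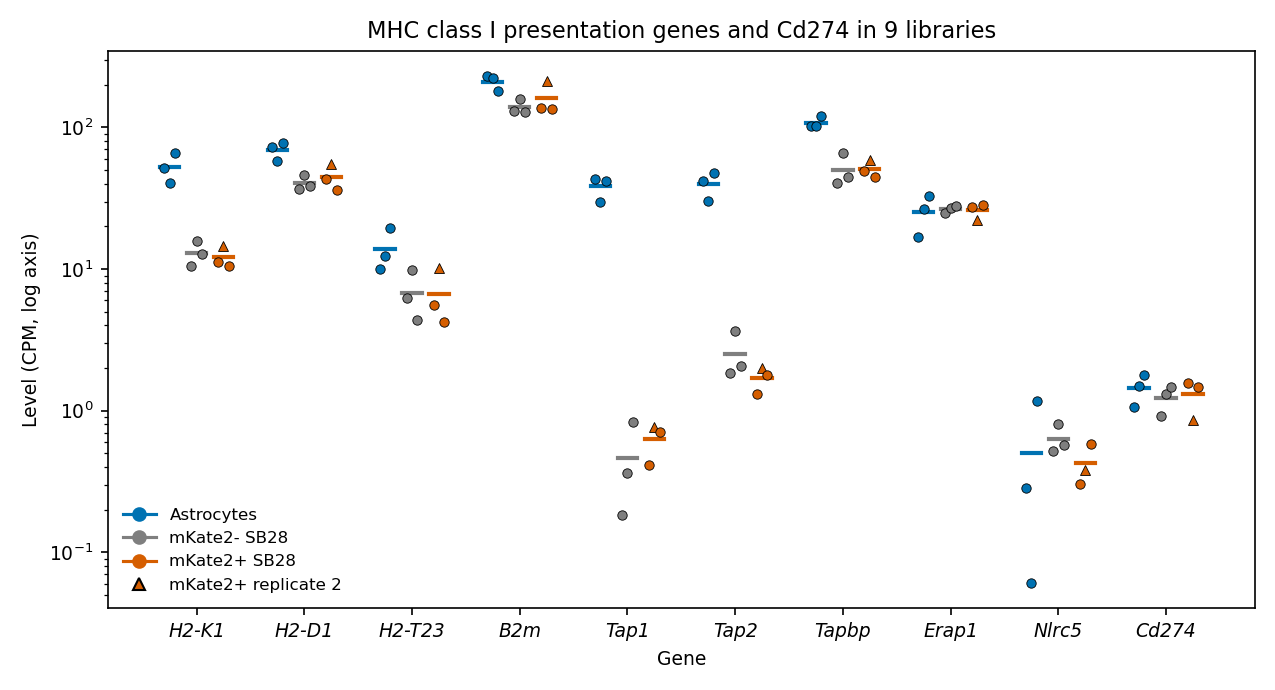
Level of each gene in CPM (log axis) in the 9 libraries, with 1 point per library, a bar at the group mean and a triangle for mKate2+ replicate 2. Tap1 lies at 29.99 to 43.4 CPM in astrocytes and below 1 CPM in all 6 SB28 libraries, whereas the groups overlap for Erap1, Nlrc5 and Cd274.

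Among the heavy chains, H2-K1, which encodes the classical K molecule, showed the largest difference of the 3. The gene (ENSMUSG00000061232, GRCm38 chr17:33996017-34000347) was at 51.5, 40.8 and 66.1 CPM in the astrocyte libraries, at 10.4, 15.7 and 12.7 CPM in mKate2- cells and at 11.3, 14.5 and 10.6 CPM in mKate2+ cells. No SB28 library reached the lowest astrocyte library. The log2 fold change from astrocytes was -2.01 ± 0.22 (SE, n = 3 per group, adjusted P = 0.000184, edgeR) in mKate2- cells and -2.04 ± 0.23 (adjusted P = 0.000258, edgeR) in mKate2+ cells, or -2.22 without replicate 2.

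H2-D1, which encodes the classical D molecule (ENSMUSG00000073411, chr17:35262730-35267499), was at 72.5, 57.9 and 77.9 CPM in astrocytes, at 37.0, 46.3 and 38.7 CPM in mKate2- cells and at 43.0, 55.5 and 36.2 CPM in mKate2+ cells. All SB28 libraries lay below all astrocyte libraries, by less than for H2-K1. The log2 fold changes were -0.76 ± 0.15 (adjusted P = 0.0033, edgeR) and -0.55 ± 0.21 (adjusted P = 0.0524, edgeR), so neither was called, and without mKate2+ replicate 2 the second was -0.77 (adjusted P = 0.0122, edgeR). The ratio of H2-K1 to H2-D1 counts was 0.704 to 0.848 in astrocytes, 0.283 to 0.339 in mKate2- cells and 0.261 to 0.293 in mKate2+ cells, and so did not overlap between astrocytes and either SB28 group. Only 0.957% of the 100-base stretches of H2-K1 transcripts and 3.59% of those of H2-D1 also occur in other genes.

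H2-T23 encodes Qa-1, a nonclassical molecule that presents leader peptides of other class I chains to NKG2A receptors. The gene (ENSMUSG00000067212, chr17:36029773-36032855) was at 10.02, 12.4 and 19.5 CPM in astrocytes, at 6.22, 9.92 and 4.36 CPM in mKate2- cells and at 5.60, 10.2 and 4.21 CPM in mKate2+ cells. All mKate2- libraries lay below the astrocyte range, replicate 2 only just, and mKate2+ replicate 2 lay inside it. It was called lower in mKate2- cells (log2 fold change -1.01 ± 0.35, adjusted P = 0.0372, edgeR), at the fold minimum, and the call was lost without mKate2- replicate 1 or 3 or astrocyte replicate 2 or 3, with values from -1.11 to -0.70. It was also lost with no filter on low counts (-0.95) and in one fit of all 9 libraries (adjusted P = 0.0542, edgeR). In mKate2+ cells the value was -0.97 ± 0.40 (adjusted P = 0.0678, edgeR), and -1.46 (adjusted P = 0.0117, edgeR) without replicate 2.

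B2m, the light chain of all these molecules (ENSMUSG00000060802, chr2:122147686-122153083), was at 231, 222 and 180.4 CPM in astrocytes, at 129.8, 158 and 129 CPM in mKate2- cells and at 138, 211 and 136 CPM in mKate2+ cells. Of the SB28 libraries, mKate2+ replicate 2 alone lay within the astrocyte range. The log2 fold change was -0.59 ± 0.14 (adjusted P = 0.00808, edgeR) in mKate2- cells, under the fold minimum, and -0.30 ± 0.22 (adjusted P = 0.274, edgeR) in mKate2+ cells, or -0.58 (adjusted P = 0.0206, edgeR) without replicate 2. Scaled by exonic length, B2m had the highest level of the 10 genes in every group, at 246 ± 31.4 CPM per kb in astrocytes, 161 ± 19.2 in mKate2- cells and 188 ± 49.8 in mKate2+ cells (SD, n = 3). The next highest on that scale were Tapbp and H2-D1, at 29.9 ± 2.96 and 26.9 ± 4.01 CPM per kb in astrocytes. Within each astrocyte library Tapbp was above H2-D1, at 28.20 against 28.10, 28.09 against 22.45 and 33.27 against 30.20 CPM per kb. In both SB28 groups H2-D1 had the higher mean, and neither difference was tested.

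The TAP transporter genes fell farthest of the 10. Tap1 (ENSMUSG00000037321, chr17:34187553-34197225) was at 43.4, 29.99 and 42.0 CPM in astrocytes, at 0.184, 0.362 and 0.838 CPM in mKate2- cells and at 0.416, 0.764 and 0.702 CPM in mKate2+ cells, where the SB28 values rest on 5 to 30 reads per library. All SB28 libraries were far below all astrocyte libraries (log2 fold changes -6.35 ± 0.44, adjusted P = 2.23e-05, and -5.85 ± 0.31, adjusted P = 1.06e-05, edgeR). Tap2 (ENSMUSG00000024339, chr17:34203527-34216321) was at 42.1, 30.1 and 47.9 CPM in astrocytes, at 1.84, 3.68 and 2.08 CPM in mKate2- cells and at 1.30, 2.01 and 1.78 CPM in mKate2+ cells. No SB28 library came near the astrocyte range, and mean levels were 15.8-fold and 23.6-fold lower, with log2 fold changes of -3.95 ± 0.32 (adjusted P = 4.15e-05, edgeR) and -4.47 ± 0.28 (adjusted P = 1.94e-05, edgeR). Without mKate2+ replicate 2 the mKate2+ values were -6.05 for Tap1 and -4.65 for Tap2.

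The remaining Tap1 reads were set beside those of genes abundant in astrocytes. As a percentage of the astrocyte mean, Tap1 was at 0.478 to 2.18% over the 6 SB28 libraries, beside 0.287 to 1.22% for Slc1a3, 0.740 to 1.22% for Apoe and 0.309 to 1.78% for Olig1. The highest Tap1, Slc1a3, Apoe and Olig1 values were all in mKate2- replicate 3. The second highest Tap1 value, 1.99%, was in mKate2+ replicate 2, where Slc1a3 (0.287%), Apoe (0.740%) and Olig1 (0.309%) were at their lowest, and in mKate2+ replicate 3 Tap1 (1.83%) was also above these genes (0.570%, 1.05% and 0.396%). The part of astrocyte RNA in the few Tap1 reads of SB28 libraries was not tested. Tap2, at 3.26 to 9.19%, lay above all of these percentages. Not every gene abundant in astrocytes was as low in SB28 cells as Slc1a3, Apoe and Olig1. Aldh1l1 of the astrocyte list was at 140, 111 and 172 CPM in astrocytes and at 4.92 to 8.48 CPM in SB28 libraries.

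**Figure D3:**
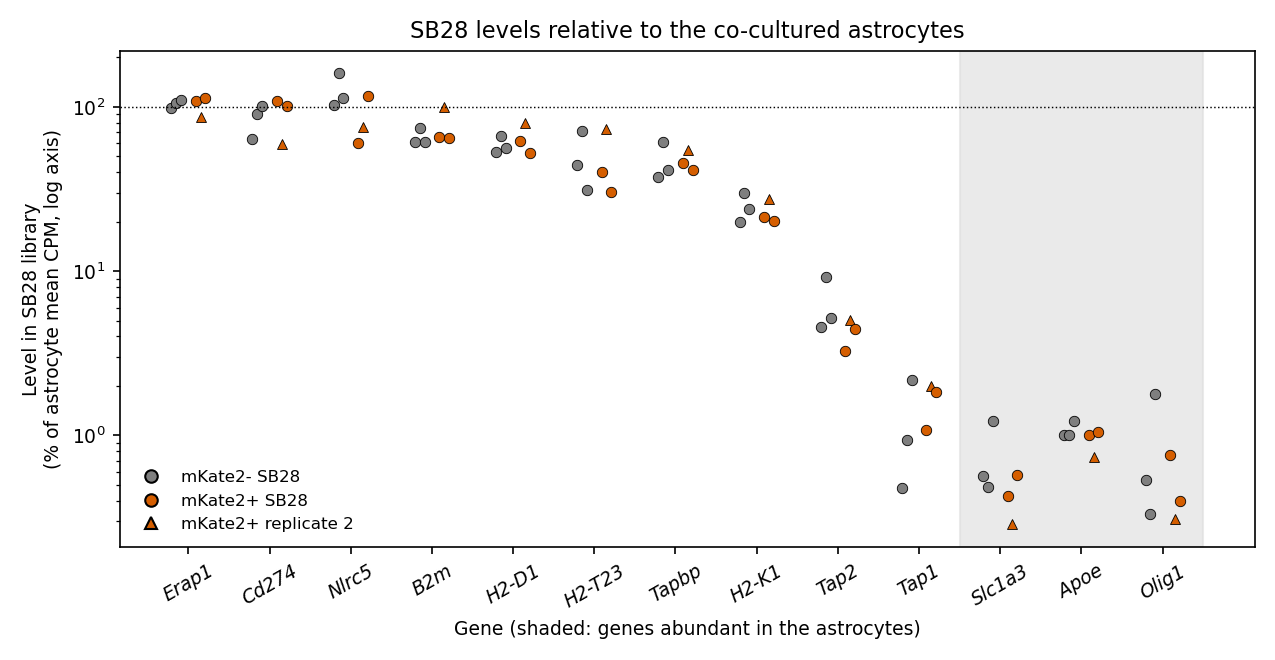
Level in each SB28 library as a percentage of the astrocyte mean CPM (log axis, dotted line at 100%), with 1 point per library and a triangle for mKate2+ replicate 2. Tap1 lies at 0.478 to 2.18%, beside 0.287 to 1.78% for Slc1a3, Apoe and Olig1 (shaded), and H2-K1 lies at 19.8 to 29.7%.

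Tapasin, the loading factor encoded by Tapbp (ENSMUSG00000024308, chr17:33915899-33929292), was at 102, 102 and 121 CPM in astrocytes, at 40.6, 65.9 and 44.6 CPM in mKate2- cells and at 49.6, 59.4 and 44.4 CPM in mKate2+ cells. All SB28 libraries were lower than all astrocyte libraries. The log2 fold changes were -1.09 ± 0.19 (adjusted P = 0.00164, edgeR) and -1.001 ± 0.16 (adjusted P = 0.00128, edgeR), so both calls sat at the fold minimum. The fold minimum was missed without mKate2- replicate 1 (-0.95) or 3 (-0.999), and in the mKate2+ comparison without mKate2+ replicate 1 (-0.96) or 3 (-0.89) or astrocyte replicate 3 (-0.94), while without mKate2+ replicate 2 the value was -1.16. The mKate2+ call was also lost with no filter on low counts (-0.94) and in one fit of all 9 libraries (-0.995). An antisense gene, Gm19412, covers 24.9% of the exonic bases of Tapbp, and whether reads were counted by strand is not given in the sources used here.

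Erap1, the trimming peptidase, did not follow the transporter. The gene (ENSMUSG00000021583, chr13:74639568-74693201) was at 16.9, 26.4 and 32.8 CPM in astrocytes, at 25.0, 26.9 and 28.1 CPM in mKate2- cells and at 27.3, 22.1 and 28.6 CPM in mKate2+ cells. The SB28 values lay inside the astrocyte range, and the log2 fold changes were 0.09 ± 0.22 (adjusted P = 0.733, edgeR) and 0.11 ± 0.23 (adjusted P = 0.698, edgeR), with the sign turning without astrocyte replicate 1 (-0.13 and -0.11). Without mKate2+ replicate 2 the second was 0.19. Cast, on the opposite strand, covers 11.5% of the exonic bases of Erap1 and had mean levels of 108.9, 129.6 and 106 CPM in astrocytes, mKate2- and mKate2+ cells.

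Nlrc5, the class I transactivator, was near the limit of detection everywhere and never passed the filter. The gene (ENSMUSG00000074151, chr8:94434356-94527272) was at 0.286, 0.0611 and 1.17 CPM in astrocytes, at 0.515, 0.808 and 0.570 CPM in mKate2- cells and at 0.305, 0.382 and 0.585 CPM in mKate2+ cells. These values rest on 2 to 41 reads per library, and the astrocyte libraries span the SB28 range.

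Cd274 was also low. The gene (ENSMUSG00000016496, chr19:29367455-29388095) was at 1.06, 1.498 and 1.79 CPM in astrocytes, at 0.920, 1.31 and 1.47 CPM in mKate2- cells and at 1.58, 0.865 and 1.46 CPM in mKate2+ cells, from 25 to 63 reads per library. All 3 groups overlapped. The log2 fold change from astrocytes was -0.22 ± 0.35 (adjusted P = 0.611, edgeR) in mKate2- cells and -0.09 ± 0.37 (adjusted P = 0.840, edgeR) in mKate2+ cells, and the second was 0.11 without replicate 2. An antisense gene that was not among those counted overlaps 14.1% of the exonic bases of Cd274.

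**Figure D4:**
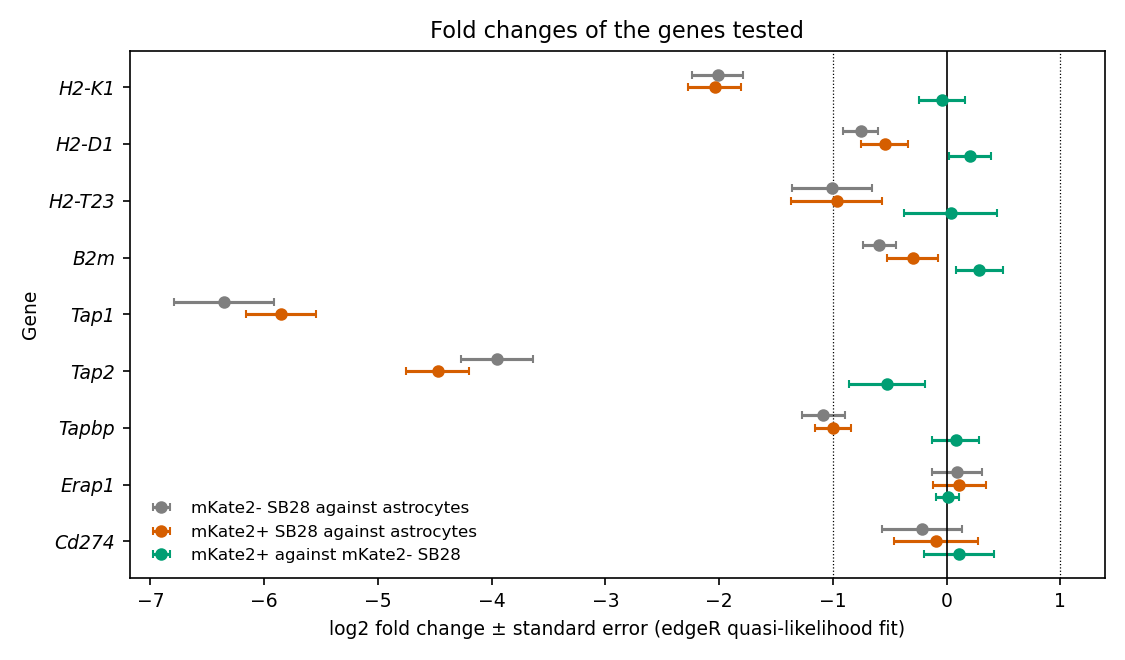
Log2 fold change ± SE from edgeR for each gene that passed the filter, with 3 libraries per group, in 3 comparisons (Tap1 and Nlrc5 were not tested between the SB28 groups). Dotted lines mark the fold minimum of 1. The green points of mKate2+ against mKate2- cells lie between -0.52 and 0.29.

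The study contrasted SB28 cells sorted with and without astrocyte mitochondria, and no member that could be tested was called between them. Of the 10 genes, 8 (all but Tap1 and Nlrc5) passed the filter in mKate2+ against mKate2- cells, and 0 were called at a fold change above 1.5, an unadjusted P below 0.05 and a mean normalized count above 50, where 0.194% of 11854 genes were called higher and 0.169% lower. Cd274, with 116 reads in all mKate2- and 141 in all mKate2+ libraries, was under that count minimum and could not be called. Values ran from -0.52 ± 0.34 for Tap2 (unadjusted P = 0.159, edgeR) to 0.29 ± 0.21 for B2m (unadjusted P = 0.202, edgeR), each with an adjusted P of 0.923. H2-K1 was at -0.04 ± 0.20, H2-D1 at 0.20 ± 0.19 and Cd274 at 0.11 ± 0.31. Without mKate2+ replicate 2, B2m was at -0.01, H2-D1 at -0.04, H2-T23 at -0.48, Tap2 at -0.72, H2-K1 at -0.24, Tapbp at -0.10, Erap1 at 0.072 and Cd274 at 0.30, and 0 were called. The mKate2+ and mKate2- libraries overlapped for all 10 genes. The share of all genes with such overlap was not computed, so this count is a description only. Across all genes, 0 passed an adjusted P of 0.05 in edgeR (241 at an unadjusted P below 0.05) or in DESeq2 (317).

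Summed over the 10 genes, transcripts took 571, 523 and 590.3 CPM in the astrocyte libraries, 253, 329 and 262 CPM in mKate2- cells and 279, 377 and 265 CPM in mKate2+ cells. The SB28 sums did not overlap those of astrocytes, and B2m was the largest part in every group. The exact two-sided permutation P was 0.1 for either SB28 group against astrocytes, the smallest that 3 against 3 libraries allow, and 0.5 between the SB28 groups. The mKate2+ mean exceeded the mKate2- mean by 25.7 CPM, but this difference was -9.39 CPM without mKate2+ replicate 2 and ranged up to 49.5 CPM with another library left out. Against astrocytes, the mKate2+ difference was -254.7 CPM, and -289.8 CPM without replicate 2.

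Among other class I and class I-like heavy chain genes, most did not pass the filter on low counts. Of 19 such genes, 8 passed the filter, and in each comparison with astrocytes 5 were called lower (H2-Q4, H2-T10, Mr1, Fcgrt and Cd1d1) and 1 higher (H2-T22), where 22.4% and 22.8% of all genes tested were called lower and 11.5% and 12.2% higher. H2-Q4, a Qa-2 region gene, was at 3.72, 2.72 and 8.77 CPM in astrocytes and at 0.117 CPM or less in every SB28 library (log2 fold changes -7.10 ± 0.81 and -5.80 ± 0.69, adjusted P = 0.000202 and 0.000318, edgeR). H2-T10 and H2-T22 encode closely related ligands of some gamma delta T cell receptors. H2-T10 was at 10.8, 8.78 and 9.56 CPM in astrocytes and at 0.153 to 0.502 CPM in SB28 libraries (-4.78 ± 0.34 and -5.63 ± 0.30). H2-T22 was at 5.68, 8.84 and 20.1 CPM in astrocytes, at 27.9, 33.0 and 28.1 CPM in mKate2- cells and at 24.02, 34.6 and 28.2 CPM in mKate2+ cells (1.38 ± 0.40 and 1.41 ± 0.43, adjusted P = 0.0177 and 0.0235, edgeR). Every SB28 library was thus above every astrocyte library for H2-T22, although the list had 0 called higher when astrocyte replicate 2, mKate2- replicate 2 or mKate2+ replicate 2 was left out. With any 1 library left out, the list had 0 to 2 called higher in each comparison. H2-T10 and H2-T22 share sequence with others (28.1% and 31.5% of their 100-base stretches), so their reads are uncertain. H2-M3, which presents formylated peptides, was at 3.59 ± 1.78, 3.81 ± 0.471 and 3.90 ± 0.666 CPM (SD, n = 3) and was not called.

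The makeup of the heavy chain transcripts differed accordingly. Over 18 H2 heavy chain genes, H2-K1 took 31.2 ± 1.37% of counts in astrocytes, 13.5 ± 1.204% in mKate2- cells and 12.4 ± 0.35% in mKate2+ cells. H2-T22 took 6.51 ± 2.94%, 31.1 ± 1.25% and 29.7 ± 3.44%. The share of H2-D1 was 41.6 ± 4.62%, 42.5 ± 0.757% and 45.7 ± 2.57%, and overlapped between groups.

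Most peptide supply and loading genes outside the 10 were not called. All 14 passed the filter against astrocytes, and 2 were called lower in each comparison, Psmb8 and Psmb9, with 0 called higher in mKate2- and 1 (Calr) in mKate2+ cells. With 1 library left out, 1 to 2 were called higher in mKate2+ cells. With 2 of 14 called lower, the list was not above the 22.4% and 22.8% of all genes called lower. Psmb8 and Psmb9 encode subunits of the immunoproteasome, the interferon-inducible form of the proteasome. Psmb8 was at 2.90, 2.57 and 7.001 CPM in astrocytes and at 0 to 0.167 CPM in SB28 libraries, from 0 to 6 reads each (-5.55 ± 0.79 and -6.99 ± 0.79, adjusted P = 0.000581 and 0.000256, edgeR). Psmb9, which shares 212 exonic bases with Tap1 on the opposite strand, was at 1.39, 0.856 and 2.19 CPM in astrocytes and at 0 to 0.127 CPM in SB28 libraries (-6.63 ± 0.86 and -4.85 ± 0.97, adjusted P = 0.000365 and 0.00366, edgeR). The list had 1 called lower without astrocyte replicate 1 or 3, where Psmb9 did not pass the filter, and all 5 Psmb9 reads of mKate2+ cells were in replicate 2. Where an SB28 group held 3 reads or fewer in all, as for Psmb8 in mKate2+ cells and Psmb9, H2-Q4 and Vtcn1 in mKate2- cells, the size of the fitted fold change depends on the prior count. The other immunoproteasome subunit, Psmb10, did not follow them and was at 18.2, 13.7 and 13.5 CPM in astrocytes, at 18.6, 24.5 and 22.8 CPM in mKate2- cells and at 19.7, 38.1 and 26.0 CPM in mKate2+ cells (0.55 ± 0.19 and 0.97 ± 0.28, under the fold minimum). The highest value was in mKate2+ replicate 2, without which the mKate2+ log2 fold change was 0.64 (adjusted P = 0.0520, edgeR). Calr, the chaperone calreticulin, was at 934 ± 55.3, 1764 ± 178 and 1931 ± 97.4 CPM (0.93 ± 0.12 and 1.12 ± 0.13).

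Among 21 interferon receptor, JAK-STAT and class I transcription factor genes, all of which passed the filter, 3 were called lower in each comparison (Irf7, Socs3 and Jak2), and 1 (Nfkb1) was called higher in mKate2- and 2 (Nfkb1 and Socs1) in mKate2+ cells. The Socs1 call (1.04) was lost without mKate2+ replicate 2 (0.93) or astrocyte replicate 2 or 3. These counts were near or below the shares over all genes (22.4% and 22.8% lower, 11.5% and 12.2% higher). Irf7, an interferon-induced factor, was at 2.88 ± 1.14 CPM in astrocytes, 0.293 ± 0.0422 in mKate2- and 0.363 ± 0.191 in mKate2+ cells (-3.27 ± 0.43 and -2.92 ± 0.53). Nfkb1, an NF-kB subunit precursor, was at 64.1 ± 6.33, 155 ± 7.38 and 147 ± 12.6 CPM (1.28 ± 0.11 and 1.27 ± 0.12). Irf1, which binds class I promoters, was at 20.97 ± 1.37, 37.3 ± 3.02 and 36.0 ± 2.98 CPM, and its log2 fold changes of 0.85 ± 0.12 and 0.86 ± 0.14 (adjusted P = 0.000589 and 0.00139, edgeR) were under the fold minimum. Socs3, a feedback inhibitor of JAK signaling, was at 87.0 ± 21.4, 31.7 ± 5.47 and 32.5 ± 5.33 CPM (-1.43 ± 0.20 and -1.33 ± 0.22).

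Astrocyte replicate 3, which had the highest Gfap and Flt1, was the highest astrocyte library for all of the 10 genes except Tap1 and B2m. It was also the highest for H2-Q4, H2-T22, Psmb8, Psmb9 and Irf7, but not for H2-T10 or Psmb10. These genes were picked out after their values were seen, and the part of this library's makeup in them was not tested.

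Genes of other checkpoint ligands, together with Cmtm6 and Cmtm4, were examined beside Cd274. Of 13 genes, 10 passed the filter, and in each comparison 4 were called lower (Vsir, Vtcn1, Cd80 and Nectin2) and 1 higher (Lgals9), beside 22.4% and 22.8% of all genes called lower and 11.5% and 12.2% higher. Vsir, which encodes VISTA, was at 8.83, 13.2 and 20.2 CPM in astrocytes and at 0.110 to 0.611 CPM in SB28 libraries (-6.16 ± 0.49 and -5.18 ± 0.53). Vtcn1, which encodes B7-H4, was at 2.26 ± 0.458 CPM in astrocytes and at 0 to 0.139 CPM in SB28 libraries (-5.93 ± 0.65 and -5.00 ± 0.71). Lgals9, which encodes galectin-9, was at 4.28 ± 1.00 CPM in astrocytes, 14.5 ± 1.24 in mKate2- and 14.0 ± 0.721 in mKate2+ cells (1.77 ± 0.22 and 1.78 ± 0.22, adjusted P = 0.000288 and 0.000394, edgeR). Cd276, which encodes B7-H3, was at 94.1 ± 2.35, 48.6 ± 10.5 and 50.9 ± 4.74 CPM, just under the fold minimum at -0.94 ± 0.17 and -0.81 ± 0.11. Cd47, the signal that restrains phagocytosis, was at 105 ± 7.96, 98.1 ± 11.1 and 93.7 ± 8.35 CPM and was not called. Pdcd1lg2, the gene of PD-L2, had 1 read in the 9 libraries, and Cd86 had 0.

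**Figure D5:**
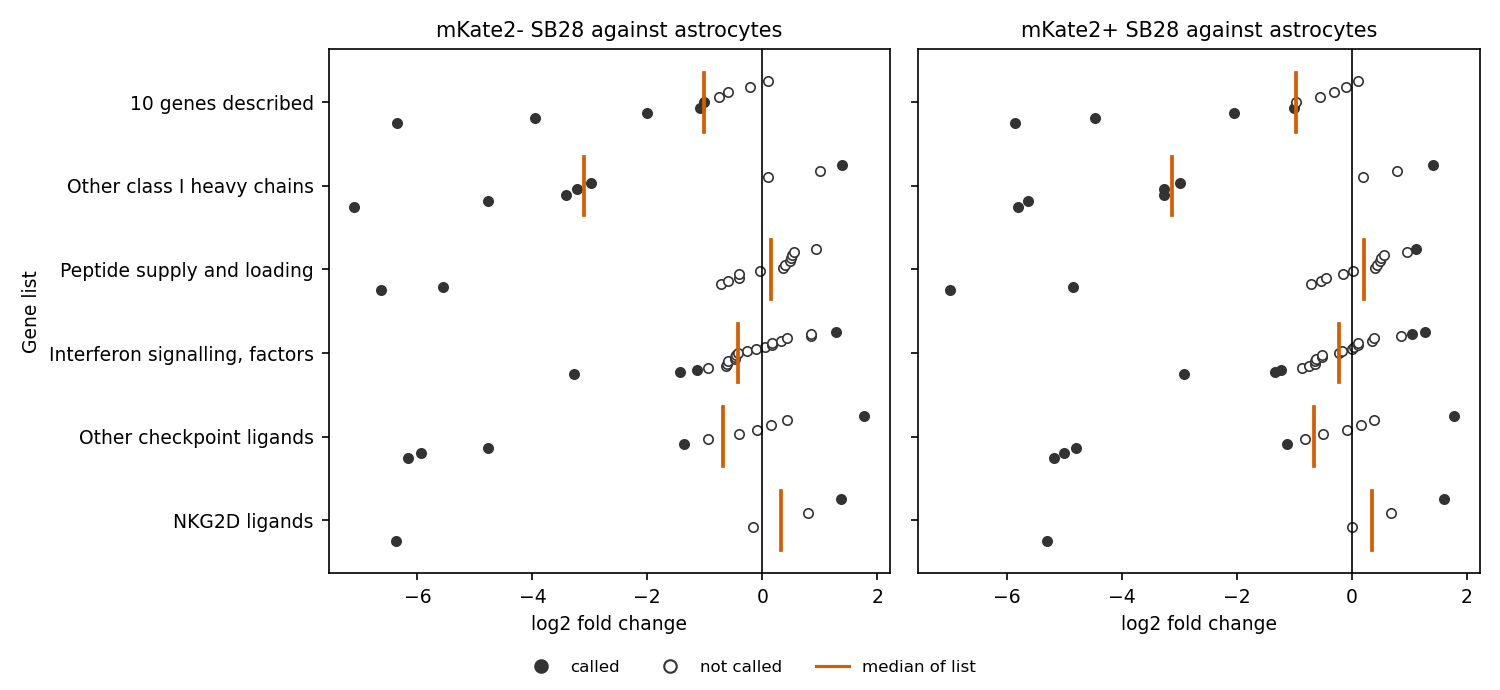
Log2 fold changes against astrocytes for the tested genes of 6 lists, with 1 point per gene, filled where called by the criteria above, and the list median as an orange line. The medians of the 10 genes described are -1.01 and -0.97, and those of peptide supply and loading genes are 0.16 and 0.21.

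NKG2D ligands, stress molecules that natural killer cells read alongside class I, were also listed. Of 9 listed, 5 were in the count table and 4 passed the filter, with Raet1e called higher and H60b called lower in each comparison (all genes, 11.5% and 12.2% higher and 22.4% and 22.8% lower). With 1 library left out, 1 to 2 of the list were called higher in each comparison. Raet1e was at 6.25 ± 1.84 CPM in astrocytes, 16.0 ± 0.939 in mKate2- and 18.1 ± 2.32 in mKate2+ cells (1.37 ± 0.24 and 1.61 ± 0.27), and H60b at 3.96 ± 1.48 CPM in astrocytes and at 0 to 0.176 CPM in SB28 libraries (-6.36 ± 0.71 and -5.30 ± 0.61). MHC class II genes were nearly silent in every group, with the 10 genes summing to 6.59 ± 1.79 CPM in astrocytes, 1.85 ± 0.371 in mKate2- and 1.61 ± 0.325 in mKate2+ cells. H2-DMa, a class II loading chaperone, was the most abundant of them and was called lower (-2.42 ± 0.33 and -2.36 ± 0.37), while Cd74, the invariant chain, was at 0.102 CPM or less and Ciita, the class II transactivator, at 0.4498 CPM or less in every library. Between mKate2+ and mKate2- cells, 0 genes of any of these lists were called, where genes under the count minimum of 50 could not be called. Without mKate2+ replicate 1, 1 peptide supply and loading gene was called higher.

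The genes whose pattern over the 9 libraries was most like that of a member were taken by the smallest root mean square difference of centred log2(CPM + 1) among 12727 genes. For H2-K1 they were Arhgef19 (0.095), March3 (0.114) and Trp53inp2 (0.116). For B2m they were Rala (0.064), Bsg (0.073) and Fkbp7 (0.094), and for Cd274 Med23 (0.071), Zmpste24 (0.077) and Pex26 (0.081). No member of the lists above was among these 9 genes.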

How the data were processed

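Bulk RNA-seq of 9 sorted samples was analyzed from raw counts. Per the labels and methods, the authors trimmed reads with Trimmomatic 0.36, aligned them to GRCm38 with STAR 2.5.2b and deposited featureCounts (Subread 1.5.2) read counts per gene, with no normalization. The annotation release and the strand setting are not given in the sources used here. Gene names, lengths and positions came from GENCODE M21, which named 49056 of 49315 gene IDs.

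Counts were tested in R 4.3.3 with edgeR 4.0.16 (TMM factors, glmQLFit and glmQLFTest) on the 6 libraries of each comparison, for genes above 1 CPM in at least 2 of them, with Benjamini-Hochberg adjustment over all genes tested. Standard errors were the absolute log2 fold change divided by the square root of F. CPM values used total counts, from 24454561 to 39287841 per library. The ± values are SDs over 3 libraries or edgeR standard errors, and so hold the spread between replicates. Intervals and floors taken from read counts alone cover counting error only. Fits were tested on simulated data. DESeq2 1.42.0, other normalizations, filters, a replicate block, a gene length correction and leaving out each library were alternatives.

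The members and lists were chosen with earlier results of these data known. Named were all 10 members, up to 2 genes called in each direction in each list, by largest change, and a fixed set of further genes. Mr1, Fcgrt, Cd1d1, Cd80, Nectin2, Jak2, Aldh1l1, Cmtm6 and Cmtm4 were named after their values were seen. The SB28 libraries were taken as labelled, since the sorting descriptions differ in which cells carried a second dye. Values of 2 genes of the lists are not reported here.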

Additional observations from a re-analysis of the deposited data

How the results depend on the processing

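The directions of H2-K1, H2-D1, H2-T23, B2m, Tap1, Tap2 and Tapbp against astrocytes were kept in all alternatives run, and Tap1, Tap2 and H2-K1 were called in all of them, except that Tap1 was not tested in mKate2- cells where 10 counts were asked of every library. Leaving out 1 library gave 3 to 5 members called lower in either comparison (3 without mKate2- replicate 1 or 3, or without mKate2+ replicate 1 or 3 or astrocyte replicate 3). Erap1 values then ran from -0.13 to 0.30 in mKate2- and from -0.11 to 0.31 in mKate2+ cells. Those of Cd274 ran from -0.39 to -0.04 and from -0.26 to 0.11. In mKate2+ cells, B2m ran from -0.58 to -0.17, H2-D1 from -0.77 to -0.40 and H2-T23 from -1.46 to -0.68. The planned length correction was first run in a form that also removed each library's mean log level, and was changed to the length trend alone after that result was seen. In the first form, listed as an alternative after seeing the data, 3 members were called lower in each comparison, 3442 and 3697 genes were called higher, Cd274 turned to 0.22 and 0.34, and H2-T23 to -0.032 between the SB28 groups. Over all alternatives, Erap1 reached 0.57 in mKate2- and 0.65 in mKate2+ cells, and its lowest adjusted P was under 0.05 in each comparison. With no filter on low counts or in one fit of all 9 libraries, 4 and 3 members were called lower. With no fold minimum, 3910 genes were called higher and 4515 lower in mKate2- cells, and 3732 higher and 4281 lower in mKate2+ cells.

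Between the SB28 groups, where 23 genes were called higher and 20 lower, the counts were unstable. Higher calls numbered 62 in DESeq2, 224 without a filter on low counts, 42 in one fit of all 9 libraries, 13 with the length trend removed, 12 with over 50 counts in every library, and 6 to 310 with 1 library left out (6 without mKate2+ replicate 2, 310 without mKate2+ replicate 1). Lower calls numbered 35 without a filter, 13 in one fit, and 16 to 70 with 1 library left out. No member was called in any of these fits, and Cd274 was under the count minimum in the main fit. Of the other lists, 1 peptide supply gene was called higher without mKate2+ replicate 1 and 1 oligodendrocyte marker lower with no filter on low counts. With 1 library left out, Tap2 stayed below 0 and the values of the other members tested changed sign, from -0.24 to 0.13 for H2-K1, -0.037 to 0.34 for H2-D1, -0.48 to 0.42 for H2-T23, -0.014 to 0.41 for B2m, -0.10 to 0.32 for Tapbp, -0.056 to 0.072 for Erap1 and -0.051 to 0.30 for Cd274. Scaling by library totals alone gave -0.033 for H2-T23 and -0.036 for Erap1, and removing the length trend -0.023 for H2-T23. The difference in the summed CPM of the 10 genes ranged from -9.39 to 49.5 CPM. The cause of these shifts was not tested.

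The methods describe separate co-cultures, but no source used here ties a replicate number to one. Same-numbered libraries correlated in their deviations from the group means at -0.0037, 0.136 and 0.170 between the SB28 groups, at 0.023 to 0.054 between astrocytes and mKate2- cells and at -0.147 to 0.251 between astrocytes and mKate2+ cells. Differently numbered libraries correlated at -0.178 to 0.082, -0.091 to 0.054 and -0.275 to 0.252 in the same order. Between the SB28 groups, 0.136 and 0.170 thus lay above every differently numbered pair, and -0.0037 did not. Since not every same-numbered pair exceeded 0.1, the numbers were not taken to pair the libraries. A shared co-culture cannot be told from these values. With the replicate number as a block, 5, 4 and 0 members were called, and between the SB28 groups 13 genes were called higher and 33 lower. Few reads stand behind Nlrc5 and Cd274 in all groups and Tap1 in SB28 cells, and the Nlrc5 counts also spread widely among astrocyte libraries.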
